A study of Mus musculus with 10 samples.

Results

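Genes linked to neutrophils were followed in subcutaneous islet grafts, and 8 of 10 could be read. The named genes were the calgranulins S100a8 and S100a9, the stefin Stfa2l1, the receptor genes Clec4d, Clec4e, Trem1, Fpr1, Fpr2 and Csf3r, and the resistin-like gene Retnlg. Members were read from probe sets that carry a single gene symbol, and 10 such probe sets gave values for 8 of the 18193 genes measured in the series. No single-symbol probe set is listed for Fpr1 and Retnlg, which were not measured here. Clec4e and Trem1 each have a pair of probe sets. Values are log2 levels, and where a gene has more than 1 probe set the one that is brightest on average stands for it.

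RNA came from male Swiss nu/nu mice, nude animals that lack T cells, aged 6 weeks. PSI grafts held islets of Wistar rats in a plasma-based scaffold, and PSI-F grafts held in addition cultured skin fibroblasts of nu/nu mice. All grafted mice, and the non-transplanted Diabetic group, had been made diabetic with a single injection of streptozotocin, whereas the Control group was untreated. Control and Diabetic were subcutaneous biopsies (day 0). Grafts were removed on days 1, 3, 7 and 10, with 1 array per condition, hence 8 graft arrays and 2 biopsy arrays. For each kind of graft and day 2 mice were killed, and the sources used here do not say if the RNA on an array is of 1 of them or both. A graft was put in place through a skin incision, so the operation, the scaffold and the islets cannot be told apart in a comparison with the biopsies. The arrays carry mouse probes, and rat transcripts count only where they bind them. Array medians were between 2.82 and 2.94, and a level at or under the median is close to background.

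Neutrophils are short-lived phagocytes and are usually the first leukocytes to enter injured tissue or to gather around an implanted material. Their cytosol is rich in calprotectin, the complex of S100a8 and S100a9, which binds zinc and calcium and, once released, acts on the receptors Tlr4 and Ager. Stefins inhibit cysteine cathepsins. The receptor members sense signals of infection, damage or demand: Clec4d and Clec4e bind glycolipids, Fpr2 binds formyl peptides and serum amyloid A, Trem1 amplifies inflammatory signals, and Csf3r is the receptor of granulocyte colony-stimulating factor. None of these genes is exclusive to neutrophils. Monocytes express several of the receptors, and activated epidermis makes calprotectin.

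The sequences before 4 start sites are shown, since these genes carry the results that follow: S100a8 and S100a9 had the calls between late and early grafts, and Stfa2l1 and Clec4e had the widest differences between PSI-F and PSI. Each line is the 250 bases before the RefSeq start site on build GRCm38.p6, read 5′ to 3′ on the gene's strand. The windows are chr3:90668821-90669070 (+ strand) for S100a8, chr3:90695722-90695971 (- strand) for S100a9, chr16:36156561-36156810 (+ strand) for Stfa2l1 and chr6:123289872-123290121 (- strand) for Clec4e. Capitals mark matches, on either strand, to TTNNGNAA, a form of the motif of C/EBP factors, or to GAGGAA, a form of the motif of ETS factors. Both families are known regulators of myeloid genes.
S100a8: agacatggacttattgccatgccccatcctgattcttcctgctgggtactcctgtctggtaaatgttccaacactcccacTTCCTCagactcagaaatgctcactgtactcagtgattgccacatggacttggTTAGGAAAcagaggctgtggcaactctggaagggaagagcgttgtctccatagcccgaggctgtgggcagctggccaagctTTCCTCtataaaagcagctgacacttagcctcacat
S100a9: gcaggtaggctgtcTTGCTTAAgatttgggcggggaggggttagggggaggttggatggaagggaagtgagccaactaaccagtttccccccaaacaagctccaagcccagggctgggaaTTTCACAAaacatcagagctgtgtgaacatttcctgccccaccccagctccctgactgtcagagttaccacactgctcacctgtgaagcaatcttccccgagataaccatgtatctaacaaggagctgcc
Stfa2l1: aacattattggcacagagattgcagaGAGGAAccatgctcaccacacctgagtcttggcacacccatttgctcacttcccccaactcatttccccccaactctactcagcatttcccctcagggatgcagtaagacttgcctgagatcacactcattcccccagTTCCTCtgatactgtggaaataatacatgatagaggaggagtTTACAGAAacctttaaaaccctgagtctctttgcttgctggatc
Clec4e: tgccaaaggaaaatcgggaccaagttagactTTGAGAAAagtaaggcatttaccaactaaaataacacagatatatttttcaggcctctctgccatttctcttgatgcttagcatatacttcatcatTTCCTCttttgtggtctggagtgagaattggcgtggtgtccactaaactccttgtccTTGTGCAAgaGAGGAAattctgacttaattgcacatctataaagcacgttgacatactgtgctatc
The S100a8 window held 1 match to the C/EBP-type motif and 2 to the ETS-type motif, and that of S100a9 held 2 and 0. The Stfa2l1 window held 1 and 2, and that of Clec4e held 2 and 2. Of all 10 named genes, 9 had at least 1 match to TTNNGNAA, against 36.8% of 32851 promoters of the same length, and 7 had a match to GAGGAA, against 23.3%. The longer motif can contain the shorter one, although no matches overlapped in the windows printed. A match to letters is a description and not a bound site.

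The calgranulin genes were at their highest on day 1 in both kinds of graft. S100a8 was at 7.95 in Control and 6.67 in Diabetic, at 10.78 in PSI and 10.59 in PSI-F on day 1, at 9.52 and 10.30 on day 3, at 8.08 and 8.12 on day 7, and at 7.86 and 6.87 on day 10. S100a9 was at 6.54 in Control and 5.82 in Diabetic, at 10.31 in PSI and 9.75 in PSI-F on day 1, at 7.42 and 9.69 on day 3, at 6.70 and 6.43 on day 7, and at 6.35 and 5.04 on day 10. All 4 grafts of days 1 and 3 were thus above both biopsies for both subunits, while by day 10 the grafts overlapped the biopsies. The PSI graft of day 3 was the lowest early graft for each of them. The S100a8 probe set is of a type (_s_at) that can bind more than 1 transcript.

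**Figure D1:**
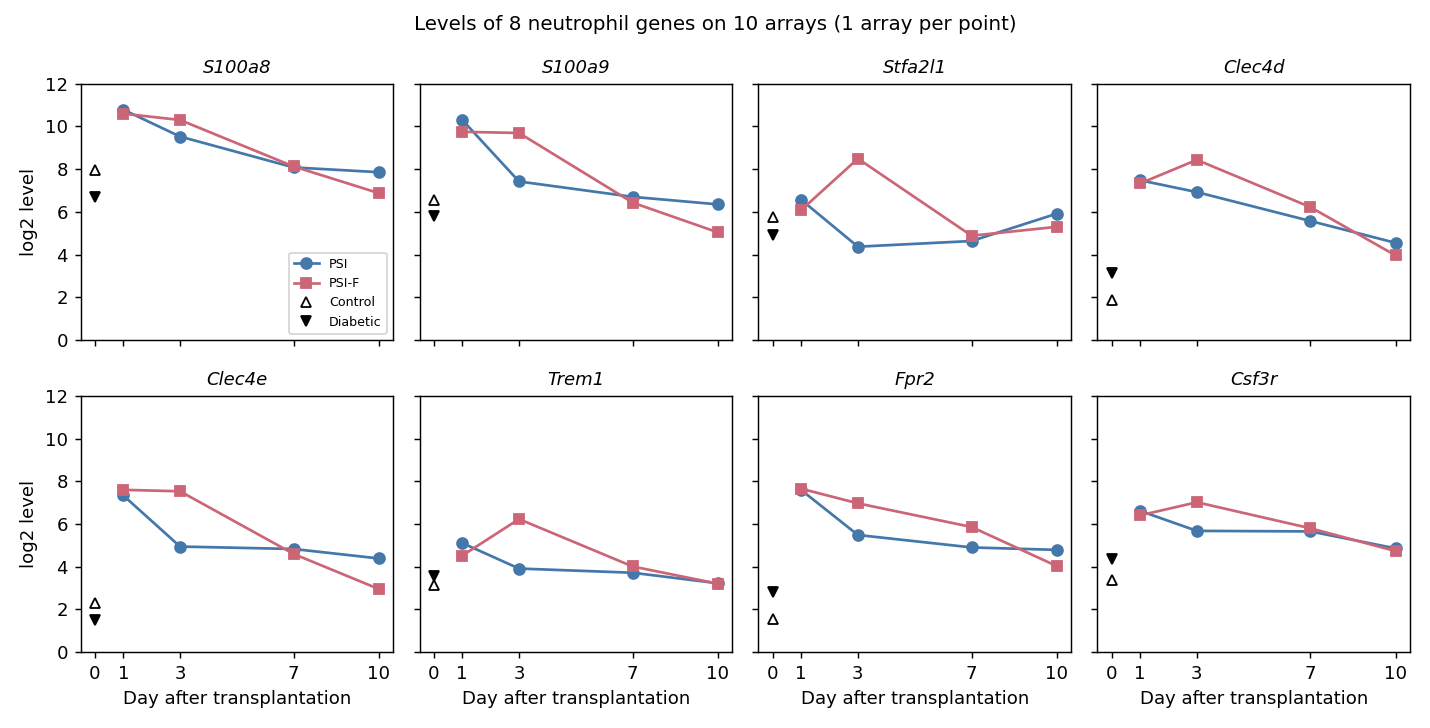
Log2 level (y axis) of the 8 measured genes by day after transplantation (x axis), with 1 array per point, circles for PSI, squares for PSI-F and triangles at day 0 for the Control and Diabetic biopsies. Levels on day 1 nearly coincide between the kinds of graft and part on day 3, where Stfa2l1 was at 8.49 in PSI-F and 4.37 in PSI.

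Stfa2l1 had a course of its own. It was at 5.75 in Control and 4.92 in Diabetic, at 6.57 in PSI and 6.08 in PSI-F on day 1, at 4.37 and 8.49 on day 3, at 4.64 and 4.88 on day 7, and at 5.92 and 5.30 on day 10. The PSI-F graft of day 3 stood 1.92 above the next highest array, and the PSI graft of the same day was the lowest of all 10. The other arrays lay within the span of 4.64 to 6.57 and overlapped the biopsies. Stfa2l1 belongs to a cluster of closely similar stefin genes, and how much of this signal is from its neighbours is uncertain.

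The 2 C-type lectin receptors were near background in the biopsies and well above it in early grafts. Clec4d was at 1.87 in Control and 3.15 in Diabetic, at 7.48 in PSI and 7.33 in PSI-F on day 1, at 6.92 and 8.43 on day 3, at 5.57 and 6.22 on day 7, and at 4.55 and 3.96 on day 10. Clec4e was at 2.31 in Control and 1.52 in Diabetic, at 7.34 in PSI and 7.60 in PSI-F on day 1, at 4.95 and 7.53 on day 3, at 4.83 and 4.60 on day 7, and at 4.39 and 2.96 on day 10. All 8 grafts were above both biopsies for both receptors. The other Clec4e probe set ran from 1.25 to 5.07, with its peak in the PSI-F graft of day 3.

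Fpr2, the formyl peptide receptor, and Csf3r also lay above both biopsies in all 8 grafts. Fpr2 was at 1.57 in Control and 2.82 in Diabetic, at 7.59 in PSI and 7.65 in PSI-F on day 1, at 5.49 and 6.97 on day 3, at 4.90 and 5.86 on day 7, and at 4.79 and 4.03 on day 10. Csf3r was at 3.37 in Control and 4.38 in Diabetic, at 6.61 in PSI and 6.40 in PSI-F on day 1, at 5.68 and 7.02 on day 3, at 5.65 and 5.80 on day 7, and at 4.86 and 4.73 on day 10. Trem1, the amplifier of inflammatory signals, stayed nearer to background. It was at 3.13 in Control and 3.58 in Diabetic, at 5.11 in PSI and 4.52 in PSI-F on day 1, at 3.92 and 6.23 on day 3, at 3.72 and 4.01 on day 7, and at 3.23 and 3.21 on day 10. The PSI-F graft of day 3 was 1.12 above the next array for Trem1, whose day 10 grafts overlapped the biopsies. The other Trem1 probe set passed the array median only in the PSI graft of day 1 (3.29) and the PSI-F grafts of days 1 (2.98) and 3 (3.24).

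The first question was how much higher these genes were in early grafts than in tissue with no graft. In the 4 grafts of days 1 and 3, 6 of the 8 genes rose against the 2 biopsies. Each of the 6 passed limma's test (adjusted p under 0.05, Benjamini-Hochberg over 45037 probe sets), in which 2.78% of all probe sets were called higher. Their median difference over all 8 genes was 3.05, against -0.03 over all probe sets. In this test arrays of different days and kinds act as replicates, and nothing says how many mice they represent, so an adjusted p measures the spread between these arrays only. In bulk tissue, more cells of a type and more RNA per cell cannot be told apart.

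Clec4d, Clec4e and Fpr2 had the widest of these differences, against biopsy levels near or under the array median, where the size of a difference is less reliable. Clec4d rose by 5.03 on the log2 scale (SE 0.62, limma adjusted p = 0.00204, n = 4 against 2), Clec4e by 4.94 (SE 0.74, adjusted p = 0.00602) and Fpr2 by 4.73 (SE 0.64, adjusted p = 0.0035). Csf3r rose by 2.55 (SE 0.43, adjusted p = 0.0107). Of the calprotectin genes, S100a8 rose by 2.99 (SE 0.46, adjusted p = 0.00687) and S100a9 by 3.11 (SE 0.71, adjusted p = 0.0422). Trem1 (1.59, SE 0.51, adjusted p = 0.128) and Stfa2l1 (1.04, SE 0.86, adjusted p = 0.582) did not pass. Without the Diabetic array 3 members passed (Clec4d, Csf3r and Fpr2), and with array weights 2 did (Clec4d and Fpr2). S100a9 also failed without either graft of day 1 or day 7 in turn, without the PSI-F graft of day 3 and without the PSI graft of day 10. The grafts of days 7 and 10 are in this fit as a group of their own. They count in the SE and the adjusted p but not in the difference.

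**Figure D2:**
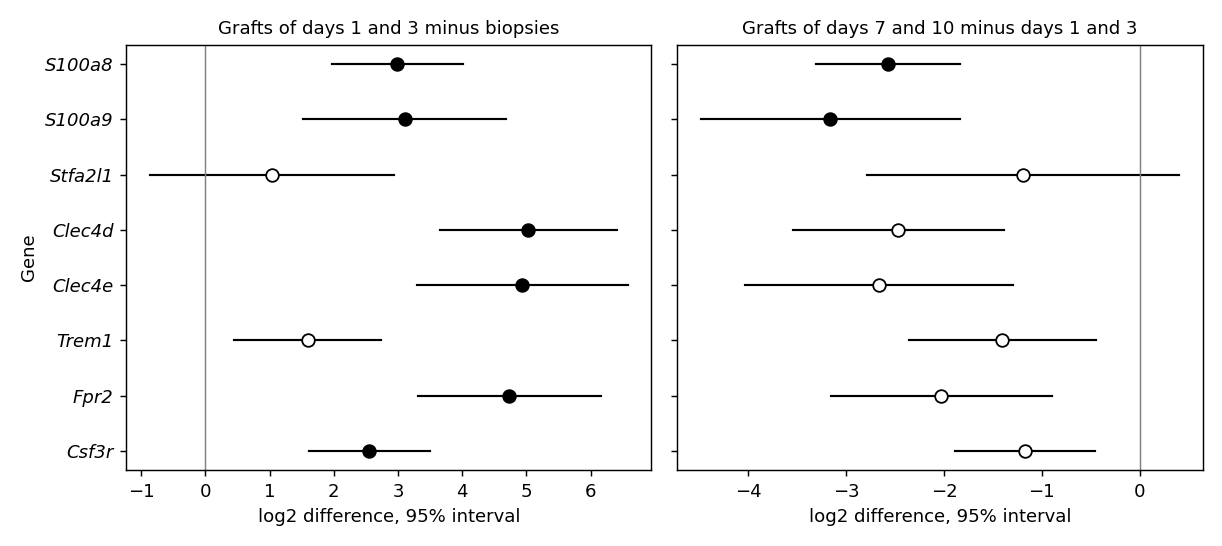
Log2 difference (x axis) with its 95% interval from limma for each of the 8 genes (y axis), for the 4 grafts of days 1 and 3 minus the 2 biopsies (left) and the 4 grafts of days 7 and 10 minus those 4 (right). Filled circles have an adjusted p under 0.05, as 6 genes do on the left and S100a8 (-2.57) and S100a9 (-3.16) on the right.

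With all 8 grafts against the 2 biopsies, no member passed the test, in which 1.49% of probe sets were called higher. The nearest were Fpr2 (3.72, SE 0.89, limma adjusted p = 0.0572), Clec4d (3.80, SE 0.99, adjusted p = 0.0767) and Csf3r (1.97, SE 0.54, adjusted p = 0.0876). S100a8 differed by 1.70 (adjusted p = 0.398) and S100a9 by 1.53 (adjusted p = 0.591), with the late grafts among the biopsies. Without the PSI-F graft of day 10, Fpr2 and Clec4d passed.

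Set against the single Diabetic array, which all of the following differences share, S100a9 was 22.4-fold higher in PSI and 15.2-fold higher in PSI-F on day 1, and S100a8 17.3-fold and 15.2-fold. For Clec4e and Fpr2 no fold is given, since their Diabetic levels (1.52 and 2.82) were at or under the array median, and for Clec4d (3.15) the Diabetic level was barely above it. S100a8, Clec4d, Clec4e and Fpr2 were at least 4-fold above Diabetic in all 4 grafts of days 1 and 3, as were 1.23% of all genes. None of the 8 was so in all 8 grafts, against 0.572% of all genes, and Clec4e was held back by the PSI-F graft of day 10 alone. With Control as the baseline, Clec4d and Fpr2 were at least 4-fold higher in all 8 grafts. Their Control levels (1.87 and 1.57) were under the array median, so this count is less reliable. No share of all genes was computed for the Control baseline. Between the biopsies, which are 1 array each, Diabetic minus Control was 1.02 for Csf3r and -1.28 for S100a8. Clec4e and Fpr2 were at or under the array median in both, as was Clec4d in Control, so the biopsies are not compared for these genes.

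The next comparison was between late and early grafts. S100a8 fell by 2.57 on the log2 scale (SE 0.33, limma adjusted p = 0.0172, n = 4 against 4) and S100a9 fell by 3.16 (SE 0.59, adjusted p = 0.046) from days 1 and 3 to days 7 and 10. They were the 2 members that passed, where 0.764% of all probe sets were called lower. The other 6 had negative differences that did not pass, from -2.66 for Clec4e (adjusted p = 0.0797) and -2.47 for Clec4d (adjusted p = 0.0512) to -1.17 for Csf3r (adjusted p = 0.121). The 2 calls were not stable. Neither passed without the PSI graft of day 1, the PSI-F graft of day 1 or the PSI graft of day 10. In those fits the calls over all probe sets, 407 in the main test, fell to 31, 81 and 51. The S100a8 difference was -2.41, -2.47 and -2.61 there, and that of S100a9 was -2.82, -3.01 and -3.23. The loss of the 2 calls is therefore not particular to these genes. Only S100a8 passed without the PSI-F graft of day 3, the PSI graft of day 7 or the PSI-F graft of day 10. S100a8 and Clec4d passed without the PSI-F graft of day 7, and 4 members passed without the PSI graft of day 3. Poly-A spike-in controls set the 4 arrays of days 7 and 10 apart, since 12 of their 24 probe sets were brighter on each of these arrays than on any of the other 6 (median difference 0.79), so time and array processing cannot be told apart here.

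The central comparison was between PSI-F and PSI grafts of the same day, which bears on the fibroblasts. On day 3, Stfa2l1 was 17.4-fold higher in PSI-F (4.12 on the log2 scale), S100a9 4.82-fold (2.27) and Trem1 4.97-fold (2.31), and Clec4e was higher by 2.59 on the log2 scale. These 4 of 8 members passed the 4-fold threshold used in the paper, as did 0.159% of all genes. Clec4d (1.51), Fpr2 (1.48) and Csf3r (1.34) passed 2-fold, which makes 7 of 8, against 0.989% of all genes, and S100a8 differed by 0.77. The median over the 8 genes was 1.89, and that of all genes -0.00. The other probe sets of Clec4e and Trem1 differed by 2.53 and 1.70. With 1 array per condition, these differences have no replicate check and no p-value.

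**Figure D3:**
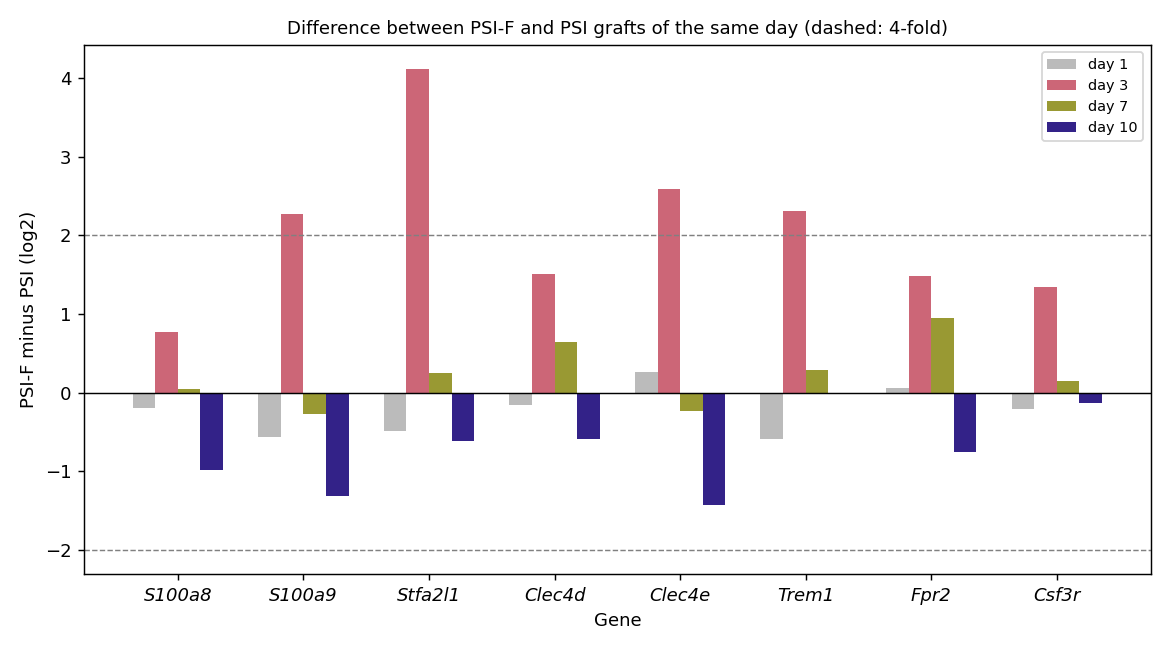
PSI-F minus PSI of the same day on the log2 scale (y axis, bars from 0) for the 8 genes (x axis), with 1 bar per day and dashed lines at 4-fold. On day 3 all 8 bars are above 0, from 0.77 for S100a8 to 4.12 for Stfa2l1, and on day 10 all are below it.

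On day 1 the kinds of graft were close. No member was at least 2-fold apart, against 1.13% of all genes, and none was 4-fold higher in PSI-F, against 0.066%. At shares this small, here and on day 7, such a count does not set the members apart from other genes. The differences ran from -0.59 for Trem1 to 0.26 for Clec4e, with a median of -0.20. On day 7 again no member was at least 2-fold apart (1.78% of all genes were) or 4-fold higher (0.258%), and Fpr2 came nearest at 0.96, before Clec4d at 0.65. On day 10 the differences were all negative, with a median of -0.69. Clec4e (-1.43) and S100a9 (-1.31, 2.48-fold lower) passed 2-fold downward on their brightest probe sets, against 0.346% of all genes, S100a8 was at -0.98, and no member was 4-fold higher, against 0.066%. The other Clec4e probe set differed by -0.58 on day 10 and did not reach 2-fold, and the mean of both was -1.01.

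The day 3 gap goes with different courses within each kind of graft. From day 1 to day 3 in PSI, S100a9 went from 10.31 to 7.42 (7.38-fold lower), Clec4e was 5.25-fold lower, Stfa2l1 4.59-fold, Fpr2 4.31-fold, S100a8 2.39-fold and Trem1 2.29-fold. These 6 of 8 members passed 2-fold downward, as did 1.01% of all genes. In PSI-F none of the 8 was at least 2-fold lower, which at a share of 1.6% of all genes does not set them apart. Stfa2l1 (5.30-fold), Trem1 (3.28-fold) and Clec4d (by 1.10 on the log2 scale) were higher on day 3 than on day 1. The median change over the 8 genes was -1.68 in PSI and 0.28 in PSI-F. In PSI-F a loss lay between days 3 and 7, where Stfa2l1 was 12.2-fold lower, S100a9 9.57-fold and Clec4e 7.63-fold. That step leads to the arrays of days 7 and 10, which the poly-A controls set apart. Time and array processing therefore cannot be told apart in it. The arrays of days 1 and 3 are on the same side of that split. With 1 array per condition, other differences between those arrays were not tested. The comparisons of this paragraph share the arrays of day 3 with those between PSI-F and PSI.

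Taken over the 4 days, with the day as a block, no member passed limma's test of PSI-F minus PSI, and the share of all 45037 probe sets that did was 0%. At an unadjusted p under 0.05 there were 2749 probe sets, and the smallest adjusted p was 0.751. The mean differences of the members ran from -0.09 for S100a8 (SE 0.24, 95% interval -0.65 to 0.48) to 0.82 for Stfa2l1 (SE 0.70, interval -0.81 to 2.44). Their adjusted p values lay between 0.771 for Fpr2 and 0.989 for S100a9. Without day 3, every member but Fpr2 had a mean difference below 0.

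The members were next set beside other genes of neutrophils. Ly6g, a defining neutrophil marker, has no single-symbol probe set listed. Of 20 measured genes of this kind, 7 rose in grafts of days 1 and 3 against the biopsies by limma's test, among them Slfn4 (4.59), the integrin subunit Itgam (3.82), the iron-binding protein gene Lcn2 (3.43) and the collagenase gene Mmp8 (2.88). In late against early grafts Itgam, Lcn2 and Mmp8 fell, and none of the 20 rose. On day 3, 6 of the 20 passed 2-fold upward in PSI-F, led by the gelatinase gene Mmp9 (2.26), Pilra (1.71) and Cd177 (1.47). Cd177 was at 1.86 in PSI on that day, under the array median, where the size of a difference is less reliable. Of the 20, 1 was at least 2-fold lower (Padi4, -1.30), and the median was 0.33. Of the granule genes transcribed mainly in neutrophil precursors of the marrow, Ngp was at up to 2.71 over the 10 arrays, Ctsg at up to 2.43, Elane at up to 2.31 and Camp at up to 2.22, all under every array median. Prtn3 reached 3.68 (PSI, day 3), Mpo 3.24 (PSI, day 3) and Ltf 3.21 (PSI-F, day 10), which is above the array medians. The chemokine receptor gene Cxcr2, which marks mature neutrophils, was at up to 2.83 (PSI-F, day 1), within the span of the array medians.

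Of 6 measured ligand genes, only Saa3 passed in early grafts against biopsies. Saa3, an acute phase protein gene whose family binds Fpr2, was at 4.15 in Control and 3.50 in Diabetic, at 9.93 in PSI and 10.15 in PSI-F on day 1, at 9.86 and 11.19 on day 3, at 8.10 and 9.22 on day 7, and at 7.50 and 6.42 on day 10. It rose by 6.46 in early grafts against biopsies, and PSI-F minus PSI was 1.33 on day 3 and -1.08 on day 10. Csf3, the ligand of Csf3r, stayed near background (1.58 to 2.62), with PSI-F minus PSI at 1.01 on day 3. Anxa1, an Fpr2 ligand, lay between 10.02 and 10.92 on all arrays.

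Among 10 measured partners and signalling genes, 5 rose in early grafts against biopsies. They were the adaptor gene Tyrobp (3.36), with which Trem1 pairs, Fcer1g (3.22), through which the C-type lectins signal, the kinase gene Syk (2.04), the cytokine-induced inhibitor gene Socs3 (2.07) and Tlr4 (1.83). Tlr4 was also the only 1 of the 10 to fall in late grafts (-1.47). Between PSI-F and PSI only Socs3 was 2-fold apart, at 1.24 on day 3 and -1.33 on day 10. Of 6 cathepsin genes, targets of stefins, Ctss (3.25) and Ctsb (1.01) rose in early grafts, and none was 2-fold apart between the kinds of graft on any day.

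Relatives of the members differed in part. Stfa3, another stefin of the same cluster, was at 9.55 in Control and 6.70 in Diabetic, at 8.63 in PSI and 8.39 in PSI-F on day 1, at 6.66 and 9.77 on day 3, at 8.76 and 8.20 on day 7, and at 8.94 and 8.20 on day 10. Like Stfa2l1, it was at its lowest in PSI and at its highest in PSI-F on day 3 (difference 3.11), but its level in Control was close to the highest graft. Trem3 (1.98), Clec4n (1.66), Treml4 (1.60) and S100a4 (1.01) also passed 2-fold upward on day 3, out of 23 relatives, whose median was 0.19. Trem3 (1.44) and Treml4 (1.95) were under the array median in PSI on that day, where the size of a difference is less reliable. S100a3, a calcium-binding gene of the hair cuticle, was far lower (-6.31), as it was on day 1 (-3.69). Its level in PSI-F on day 3 (2.41) was under the array median, so the size of that difference is less reliable too.

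Markers of other cells were examined because several members are not exclusive to neutrophils. The 10 measured macrophage markers were all above the array median on all 10 arrays, and their median was 4.62 on the Control array, 5.49 on the Diabetic array and from 6.66 to 8.02 on graft arrays. None of the 10 was 2-fold apart between PSI-F and PSI on any day, and their median difference on day 3 was 0.19, with Csf1r at 0.50. Of the 10 markers, 6 rose in early grafts against biopsies, such as Cd68 (3.75) and Adgre1 (3.15), and none passed between late and early grafts. Their part in the rise of the receptor members was not tested. T and B cell markers (6 measured) were within 3.78 and none was 2-fold apart.

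Markers of activated epidermis moved with the members on day 3. Of 7 such genes, 6 passed 2-fold upward in PSI-F (median 1.94), with Krt6b at 4.69, Sprr1b at 3.61, Krt16 at 3.46 and Krt6a at 1.94, and Sprr1a at -0.21. Their median was 9.25 on the Control array, 6.51 on the Diabetic array, 5.89 in the PSI graft and 9.35 in the PSI-F graft of day 3, and between 7.06 and 8.10 in the other grafts. All 7 were above the median of every array, and none passed in early grafts against biopsies. The part of epidermis in the day 3 differences of Stfa2l1 and S100a9 was not tested. On day 10 Krt6b (-1.65) and Sprr2d (-1.46) passed 2-fold downward. The 6 markers of resting epidermis had a day 3 median of 0.47 and none was 2-fold higher.

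**Figure D4:**
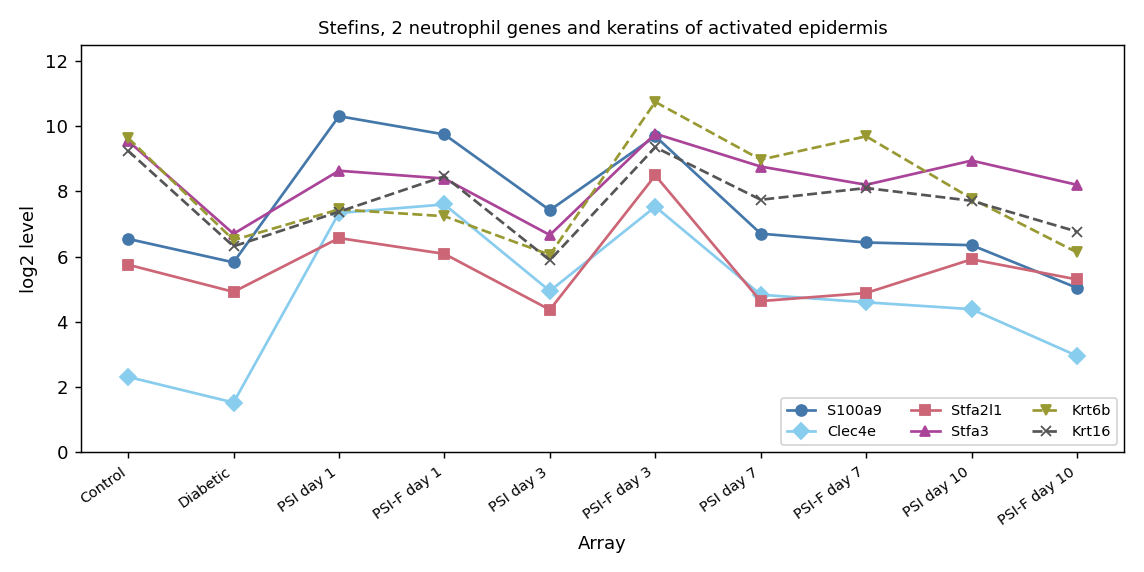
Log2 level (y axis) on the 10 arrays (x axis) of the stefin genes Stfa2l1 and Stfa3, the neutrophil genes S100a9 and Clec4e (solid lines) and the epidermal keratin genes Krt6b and Krt16 (dashed lines). All 6 are high in the PSI-F graft of day 3 and lower in the PSI graft of that day, while the keratins and Stfa3, unlike Clec4e, are also high in Control.

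Mast cell and eosinophil markers (9 genes) had a day 3 median of 0.25, with Mcpt4 (1.34) the 1 gene at least 2-fold higher, and the eosinophil genes Epx and Prg2 did not pass 1.32. Fibroblast markers (7 genes) had a day 3 median of 0.12, and Pdgfrb (1.11) was the 1 gene at least 2-fold higher. Col1a1 differed by 0.10.

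**Figure D5:**
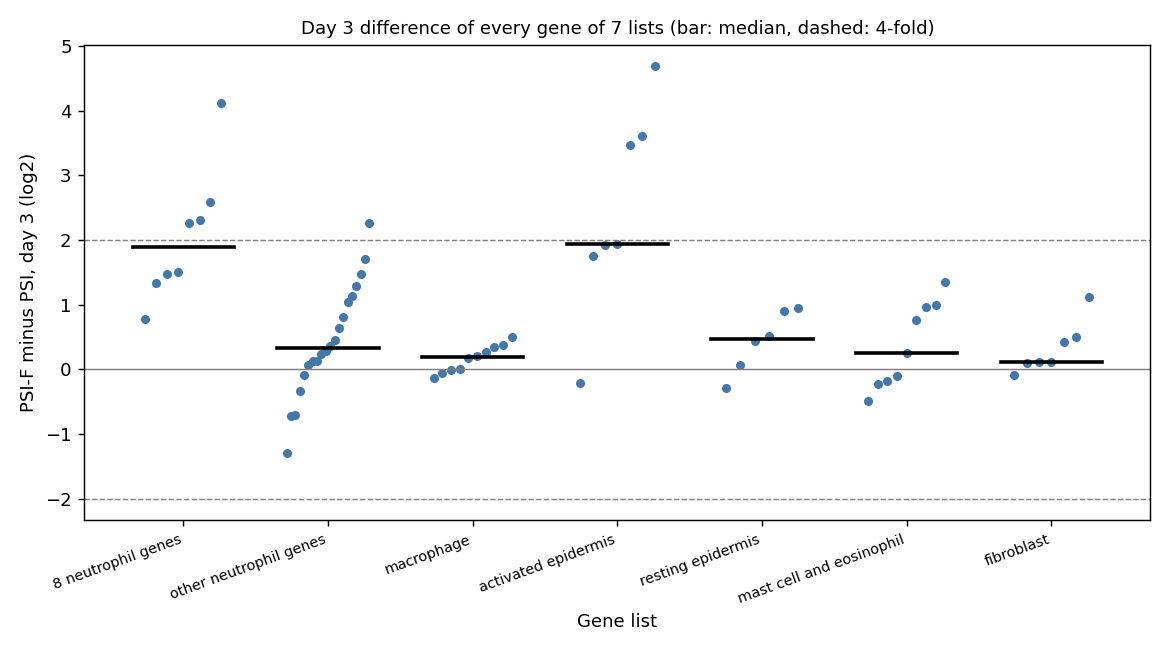
PSI-F minus PSI on day 3 on the log2 scale (y axis) for every measured gene of 7 lists (x axis), with 1 point per gene, a bar at the median of a list and dashed lines at 4-fold. The 8 neutrophil genes (median 1.89) and the activated epidermis genes (median 1.94) lie above the macrophage markers (median 0.19). The 20 other measured neutrophil genes had a day 3 median of 0.33, close to that of the macrophage markers.

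How the members went together was described over the 10 arrays, which share the same 8 grafts and 2 biopsies, with no p-value. S100a8 and S100a9 correlated at r = 0.97 (Spearman's rho 0.95), and Clec4d and Csf3r at r = 0.98 (rho 0.99). Among members other than Stfa2l1, r ran from 0.76, for Trem1 and Fpr2, to that value. Stfa2l1 stood apart, with r from 0.43 (Fpr2) to 0.77 (Trem1) and rho from 0.39 to 0.44, and its rho with Stfa3 was 0.62. With genes of activated epidermis, Stfa2l1 had r = 0.65 for Krt16 (rho 0.53), 0.50 for Krt6b (rho 0.35) and 0.27 for Sprr1b (rho 0.27). Its rho with Krt16 was thus above its rho with any other member. S100a9 had r = 0.22 with Krt6b, 0.38 with Krt16 and 0.28 with the macrophage receptor gene Csf1r.

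Of 1640 genes with a range of at least 2 on the log2 scale, those most like the mean of the 8 members were Milr1 (r = 0.98, although with levels of 0.83 to 3.23), the chemokine gene Cxcl3 (0.98), Itgam (0.97), the chemokine gene Ccl3 (0.97), Cpne2 (0.97), Srgn (0.96), Serpinb1a (0.96), Fgd3 (0.96), Cd14 (0.96) and Ptx3 (0.96). Most like the mean of S100a8 and S100a9 were Lcn2 (0.98), Serpinb1a (0.97), Cxcl3 (0.96), Bst1 (0.96) and Itgam (0.95). Most like the mean of the 5 receptors were the chemokine genes Cxcl2 (0.99) and Ccl3 (0.99), Srgn (0.98), Pid1 (0.98) and the scavenger receptor gene Msr1 (0.97). Cxcl3 and Cxcl2, whose proteins attract neutrophils, both peaked in the PSI-F graft of day 3, where PSI-F minus PSI was 3.20 and 2.83. They were picked for likeness to the members on these same arrays, so this peak and difference are no separate evidence. Cxcl3 ran from 0.50 to 5.81 and Cxcl2 from 0.97 to 8.53, and near background the size of a difference is less reliable.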

How the data were processed

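RNA of 10 samples was hybridized to Affymetrix mouse arrays, and their number, 1 per condition, limits the precision. The deposited log2 values had been computed with RMA, which corrects background, quantile-normalizes probes and summarizes each probe set. R 2.15.0 and affy 1.36.0 are listed in the processing notes of the submitters. Of 45101 probe sets, 64 controls were left out, 34945 carry 1 symbol in the platform annotation, 932 several and 9160 none. Only single-symbol probe sets were named, and a gene was represented by the probe set with the highest mean. Of 120 genes in the other lists, 109 were matched.

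For tests across the 45037 probe sets limma 3.58.1 (R 4.3.3) was used, with calls at an adjusted p under 0.05, after a check on simulated data. Alternatives were a 2-fold threshold, the mean over a gene's probe sets, cyclic loess (3 iterations) on the deposited values, a filter on dim probe sets (above the array median on at least 2 arrays), an intensity trend, array weights, 1 probe set per gene, other blocks, the Control baseline and leaving out arrays. Named were all members, up to 4 genes of each other list with the largest difference, defining markers, and the genes most like the members. A few list genes, such as Treml4, Prtn3, Mpo, Ltf, Ctsg, S100a4, Mmp8, Tlr4, Ctsb, Col1a1, Sprr1a and Sprr2d, were named after their values were seen. The members and lists were chosen with earlier results of these data known. Promoters are from RefSeq (GRCm38.p6), and all 10 members matched. Python 3.11.15 was used with numpy 2.4.6, pandas 2.3.3 and matplotlib 3.10.9.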

Additional observations from a re-analysis of the deposited data

Results flagged for a closer look

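S100a9 and Clec4e went opposite ways on different days. On the log2 scale PSI-F exceeded PSI by 2.27 for S100a9 on day 3, and the difference was -1.31 on day 10. For the brighter Clec4e probe set the differences were 2.59 on day 3 and -1.43 on day 10, and for the other one 2.53 and -0.58, so that the 2-fold difference on day 10 rests on 1 of the 2 probe sets. With 1 array per kind of graft and day, the difference between the days was not tested.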

How the results depend on the processing

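The 4 members at least 4-fold higher in PSI-F on day 3 became 7 at 2-fold, and no member was 4-fold higher on days 1, 7 or 10 under any alternative run. The count at least 4-fold above Diabetic in all 8 grafts (0) became 2 at 2-fold, and 0 to 1 when 1 graft was left out. With the Control array as baseline it became 2, both with Control levels under the array median. Of members lower in late grafts (2), 1 passed under cyclic loess, 1 with 1 probe set per gene and 1 with the kind of graft as a block. In the other direction, 3 passed with dim probe sets left out, 3 with an intensity trend and 4 with array weights. With 1 array left out, 0 to 4 passed. For all grafts against biopsies (0), 1 passed with dim probe sets left out, 1 with an intensity trend, and 0 to 2 with 1 array left out. For early grafts (6), 2 passed with array weights, and 3 to 6 with 1 array left out. Calls in either direction over all 45037 probe sets changed as well. For late grafts they were 407 in the main test, 1038 with array weights, and 31 to 523 with 1 graft left out. For early grafts they were 1626 in the main test, 374 with array weights, and 973 to 1585 with 1 graft left out. The member range for early grafts also covers fits without 1 of the biopsies, which leave a single biopsy array. This range of calls does not. Member counts and calls over all probe sets did not always move together. With an intensity trend, late graft calls fell to 369 while 3 members passed. Without the PSI-F graft of day 7, early graft calls were 1585 and 5 members passed. The cause was not tested.

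For PSI-F minus PSI over days, no member passed under any alternative. The sign turned for S100a9 with array weights (-0.19). Over fits with the arrays of 1 day left out, the mean difference ran from -0.38 to 0.21 for S100a8, -0.71 to 0.48 for S100a9, -0.28 to 1.29 for Stfa2l1, -0.031 to 0.67 for Clec4d, -0.47 to 0.87 for Clec4e, -0.11 to 0.86 for Trem1 and -0.063 to 0.45 for Csf3r. The 4 days pair the kinds of graft in this fit, and without the day as a block no member passed either. With both probe sets averaged, Clec4e on day 10 moved from -1.43 to -1.01.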
